A study of Mus musculus with 18 samples.

Results

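The 7 Ms4a genes described here (Ms4a7, Ms4a14, Ms4a6b, Ms4a6c, Ms4a6d, Ms4a4a and Ms4a4c) were taken by symbol from a table of 13043 genes, in which all 7 were present. They were measured in 18 bulk libraries of sorted mouse brain macrophages. Lethally irradiated wild-type recipients, given as C57BL6/C, had received marrow from donors carrying 3 alleles, Ms4a3-Cre, R26-TdTomato and Cx3cr1-gfp, and cells were taken 32 weeks later. The 5 groups were monocyte-derived leptomeningeal macrophages (GFP+ TdTomato+, 4 libraries), HSC-derived leptomeningeal macrophages (GFP+ without TdTomato, 2 libraries), monocyte-derived microglia (GFP+ TdTomato+, 4 libraries), HSC-derived microglia (GFP+ without TdTomato, 4 libraries) and host microglia (neither colour, 4 libraries). HSC stands for haematopoietic stem cell. Leptomeningeal macrophages were rinsed from the surface of enzyme-treated brains, and microglia came from the tissue that remained. All groups came from irradiated and transplanted mice, and every donor-derived group carried the reporter alleles while host microglia did not. Host cells were also present when the recipients were irradiated, while donor marrow was given to recipients already irradiated. Donor origin, donor genotype and irradiation of the cells themselves therefore cannot be told apart in any comparison with host microglia. The Cre driver, Ms4a3, is itself a gene of the Ms4a cluster and was not analysed here. It is active in granulocyte-monocyte progenitors, so the red label also passes to granulocytes. The labels do not say that replicates of a group were separate mice, so p-values measure the spread between these samples, which may be technical.

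MS4A proteins are small membrane proteins that cross the membrane several times and have both ends in the cytosol. Several of them work beside other receptors. Ms4a1 encodes CD20 of B cells, Ms4a2 encodes the beta chain of the high-affinity IgE receptor of mast cells, and in human macrophages MS4A4A associates with the beta-glucan receptor dectin-1, the product of Clec7a. Human MS4A4A has also been linked to the level of soluble TREM2, and mouse Ms4a6d forms a complex with the complement receptor Vsig4 in macrophages. In the mouse brain Ms4a7 is used as a marker of border-associated macrophages and of macrophages that derive from bone marrow.

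The members lie in one cluster on chromosome 19 of GRCm38 (mm10) in the GENCODE vM21 annotation. Ms4a14 (11301249 to 11314454) and Ms4a7 (11321039 to 11336146) are neighbours on the minus strand. Ms4a4a (11375523 to 11392790), Ms4a4c (11404770 to 11427246), Ms4a6c (11469366 to 11482192) and Ms4a6b (11516512 to 11531256) follow on the plus strand, and Ms4a6d (11586604 to 11604849) closes the row on the minus strand. All are annotated as protein coding. RefSeq windows from 250 bases before to 50 bases after the annotated start were found for 6 of the 7 members, in build GRCm38.p6. They are shown for the pair with the largest differences from host microglia and for Ms4a6b and Ms4a6c, whose windows share an identical run of 48 bases. Capitals mark the letters TGANTCA, the AP-1 motif, in Ms4a14 and the 48-base run shared by Ms4a6b and Ms4a6c. The windows are chr19:11336097-11336396 for Ms4a7 and chr19:11314405-11314704 for Ms4a14, both on the minus strand. They are chr19:11518309-11518608 for Ms4a6b and chr19:11469118-11469417 for Ms4a6c, both on the plus strand.
Ms4a7: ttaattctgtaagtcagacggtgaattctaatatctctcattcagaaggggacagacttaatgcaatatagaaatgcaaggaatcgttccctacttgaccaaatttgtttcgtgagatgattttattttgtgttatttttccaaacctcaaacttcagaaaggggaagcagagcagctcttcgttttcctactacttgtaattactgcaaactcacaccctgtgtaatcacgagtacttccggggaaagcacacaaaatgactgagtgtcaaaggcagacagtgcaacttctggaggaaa
Ms4a14: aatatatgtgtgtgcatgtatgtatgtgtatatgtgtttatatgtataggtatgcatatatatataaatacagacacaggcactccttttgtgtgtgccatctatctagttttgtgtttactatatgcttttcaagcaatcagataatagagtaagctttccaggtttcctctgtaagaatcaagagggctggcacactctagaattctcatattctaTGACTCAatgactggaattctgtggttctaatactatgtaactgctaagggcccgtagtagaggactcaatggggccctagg
Ms4a6b: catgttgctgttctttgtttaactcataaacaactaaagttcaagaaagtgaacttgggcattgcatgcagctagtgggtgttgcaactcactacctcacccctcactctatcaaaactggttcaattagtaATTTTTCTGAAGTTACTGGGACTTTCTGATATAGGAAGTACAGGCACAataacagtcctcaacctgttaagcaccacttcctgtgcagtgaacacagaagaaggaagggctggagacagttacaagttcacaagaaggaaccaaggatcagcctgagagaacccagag
Ms4a6c: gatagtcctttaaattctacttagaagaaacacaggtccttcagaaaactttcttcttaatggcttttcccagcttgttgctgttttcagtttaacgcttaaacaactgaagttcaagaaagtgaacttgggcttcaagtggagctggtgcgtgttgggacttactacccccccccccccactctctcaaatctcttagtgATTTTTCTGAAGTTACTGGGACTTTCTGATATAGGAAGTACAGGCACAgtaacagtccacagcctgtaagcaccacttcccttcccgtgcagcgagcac

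The shared run began 118 bases before the RefSeq start of Ms4a6b and 49 bases before that of Ms4a6c. Within it lay AGGAAGT, a form of the core bound by PU.1 and other ETS factors, at -86 in Ms4a6b and at -17 in Ms4a6c. Ms4a6b had the same letters on the other strand at -43. AGGAAGT occurred in 9.35% of 32851 RefSeq windows of this length, searched on both strands, and in 2 of 6 members. Its longer form GAGGAAGT, which contains it, occurred in 3.2% of windows and in 0 of 6 members. The interferon-response core, GAAA and again GAAA with any 2 letters between, occurred in 3.44% of windows and in 0 of 6 members, and the C/EBP-like letters TTGCNNAA in 10.8% and in 0 of 6. TGANTCA occurred in 7.81% of windows and in 1 member, Ms4a14, at -32. The window of Ms4a7 held none of these exact letters, and shorter or variant forms were not searched. Ms4a4c and its neighbour Ms4a4b, a gene known from T cells, had windows that were 72.1% identical, with the 20-base run ttctgcctcttagtcagtgg in common. The other 27 pairs of Ms4a windows were 44.4% to 51.2% identical. The windows of Ms4a6b and Ms4a4c follow the RefSeq start and do not hold the GENCODE gene start. A match is a description of these letters, not a binding site.

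RNA was counted by bulk MARS-seq, which tags the 3′ end of each polyadenylated molecule with a unique molecular identifier (UMI). Total UMI counts per library ran from 154727 to 2440234, so that a floor of 3 counts equals 1.23 to 19.4 CPM, depending on the library; CPM are counts scaled to a common library size. Levels below are CPM scaled by the TMM method, and no level is compared between genes. Of the 7 members, 6 passed the filter on low counts that left 10597 genes, and Ms4a4a did not. The summed level of 8 microglial markers was 1814 to 3703 CPM in leptomeningeal libraries, 7154 to 9322 in donor-derived microglia and 17337 to 19974 in host microglia. The 8 border-associated macrophage markers summed to 5464 to 6816 CPM in monocyte-derived and 8288 to 11717 in HSC-derived leptomeningeal libraries, to 1078 to 1145 in monocyte-derived microglia, to 1211 to 1701 in HSC-derived microglia and to 37.6 to 39.4 in host microglia, where Lyve1 and Cd209f were at 0. The 3 shallowest libraries, HSC-derived leptomeningeal replicate 2 and HSC-derived microglia replicates 3 and 4, had 17.7%, 12.8% and 12.2% of their counts in ribosomal protein genes. The other library of that leptomeningeal group had 13.7%, and the other HSC-derived microglia had 7.81% and 7.99%. In bulk RNA, fewer cells of a type and less RNA per cell cannot be told apart.

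The 7 members together reached 2556 ± 336 CPM in monocyte-derived leptomeningeal macrophages (SD, n = 4), 2991 ± 117 in HSC-derived leptomeningeal macrophages (SD, n = 2), 2726 ± 189.6 in monocyte-derived microglia (SD, n = 4) and 2626 ± 148 in HSC-derived microglia (SD, n = 4). Host microglia had 401 ± 29.2 CPM (SD, n = 4). The libraries of the 4 donor-derived groups spanned 2324 to 3073 CPM and those of host microglia 373 to 442. For 6 of the 7 members every donor-derived library lay above every host library, as was the case for 5.79% of all tested genes. The exception was Ms4a4a, with counts of 0 in 1 library of each HSC-derived group.

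**Figure D1:**
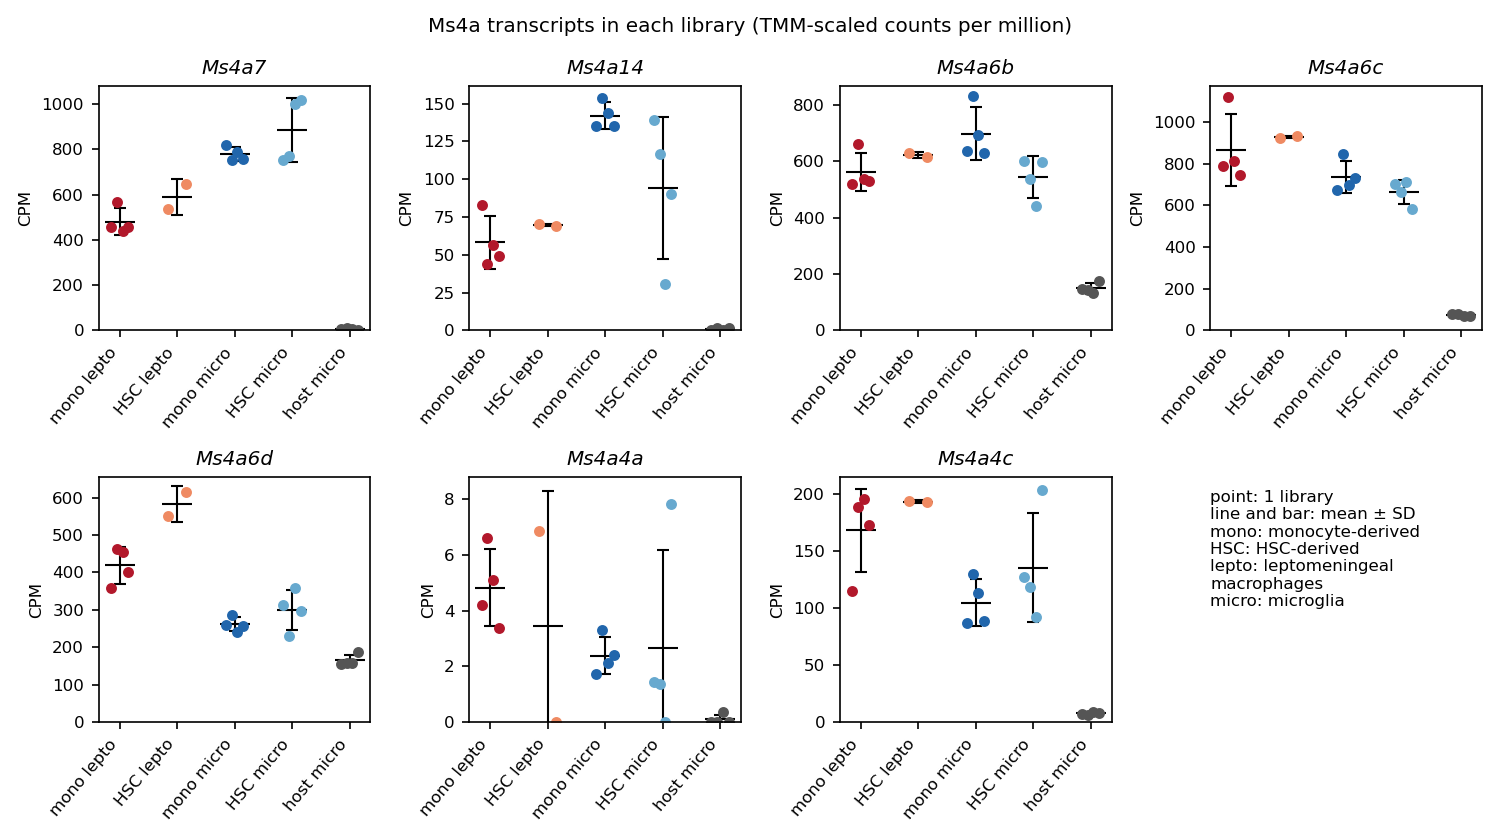
TMM-scaled CPM (y axis, starting at 0, with its own range in each panel) of the 7 members in each library, by group (x axis). Points are libraries, and lines with bars are means ± SD, cut at 0 where the bar would go below. The mean of host microglia is the lowest in every panel, at 6.05 ± 4.41 CPM for Ms4a7 and 165 ± 14.9 for Ms4a6d. For Ms4a4a, 1 library of each HSC-derived group also lies at 0.

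Monocyte-derived microglia were compared with host microglia to ask how family transcripts differ between donor-derived cells with the fate label and the resident cells beside them. All 6 tested members were higher in monocyte-derived microglia, where 15.1% of all tested genes were called higher. Their log2 fold changes ran from 0.67 to 7.36 with a median of 3.55, beside a median of 0.01 over all tested genes. The members split by size. Ms4a14 differed 165-fold and Ms4a7 119-fold, Ms4a4c 13.5-fold and Ms4a6c 10.1-fold, and Ms4a6b 4.67-fold and Ms4a6d 1.59-fold. Calls are from the edgeR quasi-likelihood test with Benjamini-Hochberg adjustment over 10597 genes at 0.05.

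Ms4a7, the marker of border and marrow-derived macrophages, had 820.2, 754, 788 and 759 CPM in monocyte-derived microglia and 4.29, 12.3, 5.62 and 2.01 CPM in host microglia. The groups were far apart, with 911 to 1423 UMIs per library in monocyte-derived microglia and 3 to 27 in host microglia. The log2 fold change was 6.90 ± 0.26 (SE; edgeR adjusted p = 3.7e-21). Ms4a14, which adjoins Ms4a7, had 135, 154, 144 and 135 CPM in monocyte-derived microglia, and 0, 1.36, 0.351 and 1.34 CPM in host microglia. The 4 host libraries held 6 UMIs in all against 795 in monocyte-derived microglia. This is a count ratio of 187, with an exact 95% interval of 85.5 to 511 that covers counting error only. The fitted log2 fold change was 7.36 ± 0.37 (SE; edgeR adjusted p = 1.62e-15).

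Ms4a6c had 674, 847, 697 and 732 CPM in monocyte-derived microglia and 77.3, 78.2, 67.8 and 67.6 CPM in host microglia, a log2 fold change of 3.34 ± 0.17. Ms4a4c had 86.5, 129.9, 114 and 88.6 CPM in monocyte-derived microglia and 7.16, 5.91, 9.13 and 8.04 CPM in host microglia, a log2 fold change of 3.75 ± 0.23. In host microglia these levels rested on 101 to 193 UMIs per library for Ms4a6c and on 10 to 26 for Ms4a4c. Ms4a6b had 636, 832, 694 and 630.5 CPM in monocyte-derived microglia and 147, 144, 131 and 176 CPM in host microglia. Its log2 fold change was 2.22 ± 0.16. Ms4a6d, the partner of Vsig4, had 261, 286, 241 and 257 CPM in monocyte-derived microglia and 155, 157, 159 and 187 CPM in host microglia. It showed the smallest difference of the 6, with a gap between groups from 187 to 241 CPM and a log2 fold change of 0.67 ± 0.14 (SE; edgeR adjusted p = 0.000359).

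Ms4a4a, the mouse counterpart of the dectin-1 partner, was scarce everywhere. It had 3, 4, 3 and 3 UMIs in monocyte-derived microglia and 0, 0, 1 and 0 in host microglia. The count ratio was 18.3, with an exact 95% interval of 2.76 to 780. Without the filter on low counts it passed the edgeR test, with an adjusted p of 0.00327.

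HSC-derived microglia, donor cells of the same compartment without TdTomato, were set against the same 4 host libraries, so this comparison is not independent of the one above. All 6 tested members were again called higher, beside 16.3% of all tested genes. The median log2 fold change of the members was 3.65, beside 0.00 over all genes. Ms4a7 had 754, 768, 999 and 1018 CPM in HSC-derived microglia, against the host values given above, a log2 fold change of 7.07 ± 0.26 (SE; edgeR adjusted p = 2.61e-21). The shallow replicates 3 and 4 were the higher pair, with 195 and 260 UMIs. Ms4a14 had 139, 117, 30.7 and 90.0 CPM in HSC-derived microglia and a log2 fold change over host microglia of 6.94 ± 0.41. Its lowest library, shallow replicate 3, rested on 6 UMIs. Its group value was 94.1 ± 46.7 CPM (SD, n = 4), the widest spread relative to the mean among the 6 tested members in this group.

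Ms4a4c had 128, 118, 92.2 and 204 CPM in HSC-derived microglia, where the highest value came from shallow replicate 4 with 52 UMIs, and a log2 fold change over host microglia of 4.11 ± 0.25. Ms4a6c had 700.0, 664, 712 and 583 CPM and a log2 fold change of 3.19 ± 0.17. Ms4a6b had 601, 537, 441 and 599 CPM and a log2 fold change of 1.87 ± 0.16. Ms4a6d had 313, 231, 359 and 297 CPM and a log2 fold change of 0.84 ± 0.15 (SE; edgeR adjusted p = 3.95e-05). In each of these 4 genes the lowest HSC-derived library stood above the highest host library, as it did for 12% of all tested genes. Ms4a4a had 1, 1, 0 and 2 UMIs in HSC-derived microglia and 1 UMI over the host libraries, a count ratio of 16.9 with an exact 95% interval of 1.67 to 830. Without the filter on low counts it passed the edgeR test here too, with an adjusted p of 0.0273.

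Markers of other cells also differed from host microglia. All 8 border-associated macrophage markers were called higher in both donor-derived microglia, with median log2 fold changes of 4.51 for monocyte-derived and 5.90 for HSC-derived cells, and their sums are given above. The 8 T and NK cell markers summed to 217 to 266 CPM in monocyte-derived microglia, 56.4 to 316 in HSC-derived microglia and 78.7 to 137 in host microglia, and 8 and 4 of them were called higher in monocyte-derived and HSC-derived microglia. Cd3g was at 0 in HSC-derived microglia. Of 8 listed monocyte markers 7 were in the table. They summed to 56.5 to 91.0 CPM in monocyte-derived microglia, 97.8 to 133 in HSC-derived microglia and 9.83 to 15.0 in host microglia, and 4 and 2 of the 7 were called higher in monocyte-derived and HSC-derived microglia. Of 7 dendritic cell markers in the table, 3 were called higher in monocyte-derived and 4 in HSC-derived microglia, and 1, Siglech, which is also a microglial marker, was lower in both. Their sum, Siglech included, was 1048 to 1138 CPM in monocyte-derived microglia, 1194 to 1339 in HSC-derived microglia and 1767 to 1942 in host microglia, where Ccr7 was at 0. The part of these markers in the differences was not tested.

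**Figure D2:**
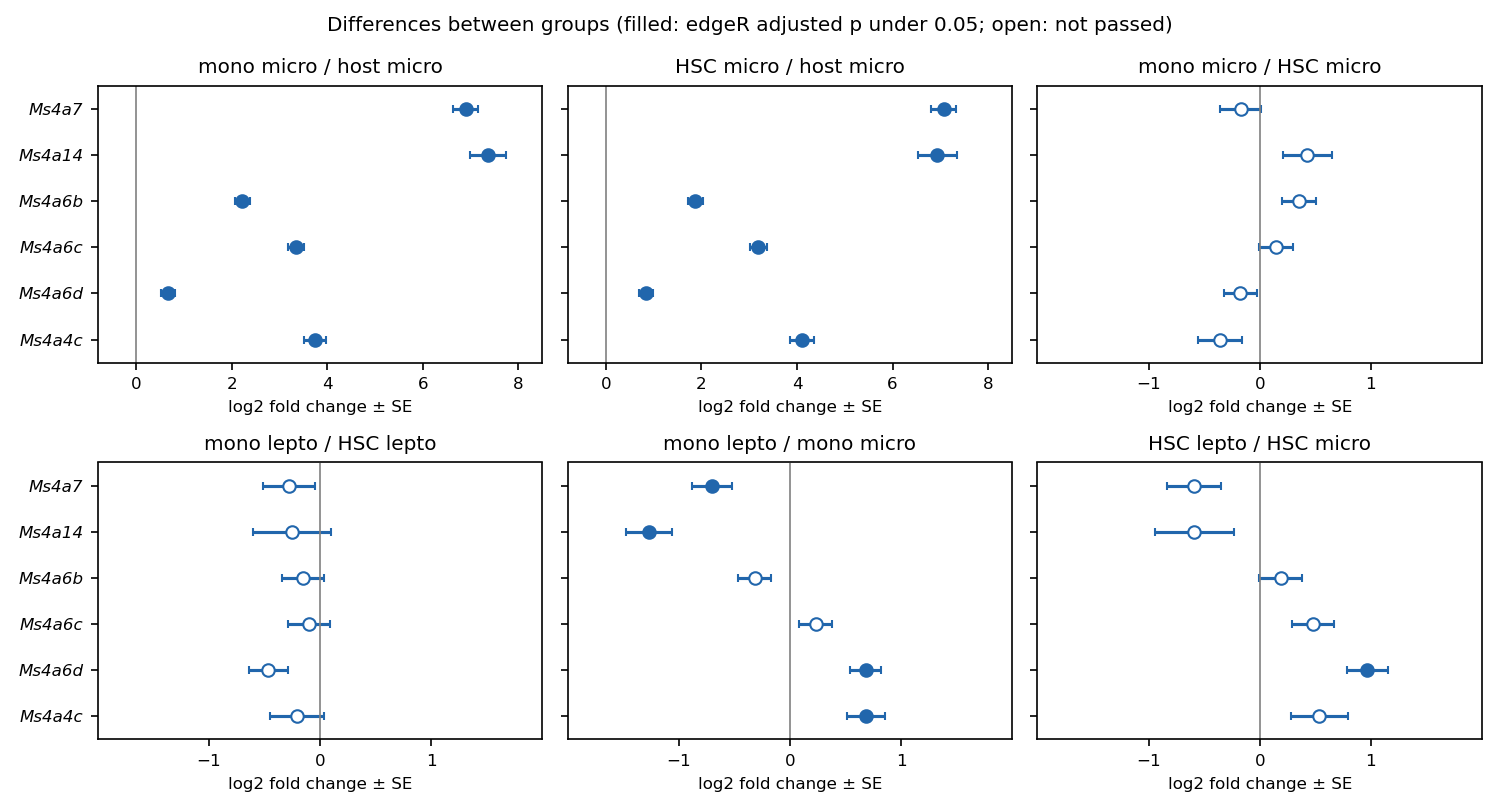
Log2 fold change ± SE (x axis) of the 6 tested members (y axis) in the 6 comparisons of pairs of groups, each titled as first group over second; filled points passed the edgeR test. The upper left and upper middle panels, against host microglia, have a wider axis than the others, and all their points lie to the right of 0, from 0.67 to 7.36.

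Differences between donor-derived microglia with and without the fate label were much smaller. Of the 6 tested members, 0 were called between monocyte-derived and HSC-derived microglia, where 1.89% of all tested genes were called. At an unadjusted p under 0.05 the count was 1, and DESeq2 called 0. The gene with the unadjusted p under 0.05 was Ms4a6b, with a log2 fold change of 0.35 (95% interval 0.05 to 0.65; edgeR adjusted p = 0.242). Its monocyte-derived libraries, at 630.5 to 832 CPM, lay above its HSC-derived libraries, at 441 to 601 CPM. For the other 5 the groups overlapped, and over all tested genes 10.6% had groups that did not. Their intervals still allow differences. Ms4a7 had a log2 fold change of -0.17 with a 95% interval of -0.53 to 0.19, Ms4a14 one of 0.43 with an interval of -0.0035 to 0.86, and Ms4a4c one of -0.36 with an interval of -0.74 to 0.02. The intervals of Ms4a6c (-0.15 to 0.45) and Ms4a6d (-0.47 to 0.12) lay within 0.5 of 0. Over the group, Ms4a4a had 13 UMIs in monocyte-derived and 4 in HSC-derived microglia, a count ratio of 1.09 with an exact 95% interval of 0.336 to 4.58.

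Between compartments, members differed in both directions. Against monocyte-derived microglia, monocyte-derived leptomeningeal macrophages had lower Ms4a14 and Ms4a7 and higher Ms4a6d and Ms4a4c. Of 6 tested members 2 were called higher, beside 19% of all genes, and 2 lower, beside 16.3% of all genes. Each count is about 1 gene more than that share of 6 genes would give. The median log2 fold change of the members was -0.04, the same as over all genes to 2 decimals.

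Ms4a14 had 82.9, 43.9, 56.7 and 49.1 CPM in monocyte-derived leptomeningeal macrophages and 135 to 154 CPM in monocyte-derived microglia. The groups did not overlap, and the log2 fold change was -1.27 ± 0.20 (SE; edgeR adjusted p = 1.58e-05). Ms4a7 had 458, 567, 438 and 456 CPM in monocyte-derived leptomeningeal macrophages and 754 to 820.2 CPM in monocyte-derived microglia, again with no overlap, and a log2 fold change of -0.70 ± 0.18 (SE; edgeR adjusted p = 0.00232). Both are the genes with the largest differences from host microglia, and both were lower at the brain surface than in the parenchyma. Ms4a6d had 358, 462, 454 and 401 CPM in monocyte-derived leptomeningeal macrophages and 241 to 286 CPM in monocyte-derived microglia, without overlap. Its log2 fold change was 0.68 ± 0.14 (SE; edgeR adjusted p = 0.000215). Ms4a4c had 115, 189, 195 and 173 CPM in monocyte-derived leptomeningeal macrophages and 86.5 to 129.9 CPM in monocyte-derived microglia. Leptomeningeal replicate 1 lay inside the microglial range, and the log2 fold change was 0.69 ± 0.17 (SE; edgeR adjusted p = 0.00182). With total counts and no scaling factor the call was lost, at a log2 fold change of 0.37 (adjusted p = 0.0883).

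Ms4a6b and Ms4a6c, the pair with the shared promoter run, were not called. Ms4a6b had 518, 660.0, 538 and 528 CPM in monocyte-derived leptomeningeal macrophages and a log2 fold change of -0.32 (95% interval -0.61 to -0.03; edgeR adjusted p = 0.0944). Ms4a6c had 787, 1119, 814 and 743 CPM in monocyte-derived leptomeningeal macrophages and a log2 fold change of 0.23 (95% interval -0.06 to 0.52; edgeR adjusted p = 0.242). Leptomeningeal replicate 2 had the highest level of both. Ms4a4a had 6, 6, 8 and 5 UMIs in monocyte-derived leptomeningeal macrophages and 13 UMIs over the 4 libraries of monocyte-derived microglia, a count ratio of 2.01 with an exact 95% interval of 0.989 to 4.27. Several marker lists differed here too. All 8 border-associated macrophage markers were called higher in monocyte-derived leptomeningeal macrophages, with a median log2 fold change of 4.62. Of 8 neutrophil markers listed, 7 were in the table, and their sum was 1109 to 2714 CPM in monocyte-derived leptomeningeal macrophages and 11.5 to 52.7 CPM in monocyte-derived microglia. T and NK cell markers summed to 855 to 1423 CPM in monocyte-derived leptomeningeal macrophages and monocyte markers to 664 to 968 CPM, above the sums in monocyte-derived microglia given above. The 6 B cell markers in the table summed to 694 to 1336 CPM there and 493 to 542 CPM in monocyte-derived microglia. For mast cell and basophil markers the sums were 0.703 to 106 CPM and 0 to 0.828 CPM. In each of these 2 lists 3 of 4 tested markers were called higher. Of 7 dendritic cell markers, 4 were called higher and 1 lower. The part of these cells in the differences was not tested.

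In HSC-derived cells, with 2 leptomeningeal libraries, Ms4a6d was the only member called, 1 of 6 beside 5.75% of all genes called higher. It had 549.7 and 616 CPM in HSC-derived leptomeningeal macrophages and 231 to 359 CPM in HSC-derived microglia, a log2 fold change of 0.97 ± 0.18 (SE; edgeR adjusted p = 0.00037). Ms4a7 had 534 and 647 CPM in HSC-derived leptomeningeal macrophages, below the 754 to 1018 CPM of HSC-derived microglia, and a log2 fold change of -0.59 ± 0.24 that did not pass (edgeR adjusted p = 0.125). Ms4a6c had 922 and 932 CPM in HSC-derived leptomeningeal macrophages, above the 583 to 712 CPM of HSC-derived microglia, and a log2 fold change of 0.48 ± 0.19 that did not pass (edgeR adjusted p = 0.113). DESeq2 called both, for 3 members in all. Ms4a14 had 70.4 and 69.3 CPM in HSC-derived leptomeningeal macrophages, Ms4a4c 194 and 193 CPM, and Ms4a6b 630.4 and 616 CPM, with log2 fold changes over HSC-derived microglia of -0.59, 0.53 and 0.19 that did not pass. Ms4a4a had 4 and 0 UMIs. The second library, of 154727 counts, gave 9 UMIs for Ms4a14 and 25 for Ms4a4c, and lay close to the first for both. All 8 border-associated macrophage markers were called higher in HSC-derived leptomeningeal macrophages than in HSC-derived microglia, with a median log2 fold change of 4.12. T and NK cell markers summed to 347 to 742 CPM in HSC-derived leptomeningeal macrophages and 56.4 to 316 CPM in HSC-derived microglia, with 4 of 8 called higher. Monocyte markers summed to 331 to 569 CPM in HSC-derived leptomeningeal macrophages, where Chil3 was at 0, and 97.8 to 133 CPM in HSC-derived microglia, with 3 of 7 called higher. Their part in these differences was not tested.

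Between monocyte-derived and HSC-derived leptomeningeal macrophages 0 of 6 members were called, beside 0.302% of all genes; 1 had an unadjusted p under 0.05 and DESeq2 called 0. That gene was Ms4a6d, at 358 to 462 CPM in monocyte-derived and 549.7 and 616 CPM in HSC-derived leptomeningeal macrophages, with a log2 fold change of -0.47 (95% interval -0.82 to -0.11; edgeR adjusted p = 0.336). Neutrophil markers summed to 1109 to 2714 CPM in the monocyte-derived and 3.44 to 30.8 CPM in the HSC-derived leptomeningeal libraries. The test of whether the compartment difference itself differed with the fate label called 0 of 6 members, beside 0.0566% of all genes; 1 had an unadjusted p under 0.05 and DESeq2 called 0. That gene was Ms4a6b, with a difference of -0.51 on the log2 scale (95% interval -0.98 to -0.03; edgeR adjusted p = 0.621). The call of Ms4a7 in monocyte-derived cells and its absence in HSC-derived cells is thus not a tested difference, since the interaction of Ms4a7 was -0.11 (95% interval -0.69 to 0.47).

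Ordered by group mean, Ms4a7 ran from HSC-derived microglia over monocyte-derived microglia, HSC-derived and monocyte-derived leptomeningeal macrophages to host microglia. The libraries of the first pair overlapped, as did those of the leptomeningeal pair, while the steps from microglia to leptomeningeal macrophages and on to host microglia showed no overlap. For Ms4a14, neighbours in the order overlapped except at the step to host microglia. For Ms4a6c, Ms4a4c and Ms4a4a the same held, with a leptomeningeal group at the top. Ms4a6d was highest in HSC-derived leptomeningeal macrophages, without overlap with the next group. Ms4a6b was highest in monocyte-derived microglia. Its lowest library there, at 630.494 CPM, all but touched the highest HSC-derived leptomeningeal library, at 630.404 CPM. Monocyte-derived leptomeningeal replicate 2, at 660.0 CPM, lay inside the range of monocyte-derived microglia for Ms4a6b.

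**Figure D3:**
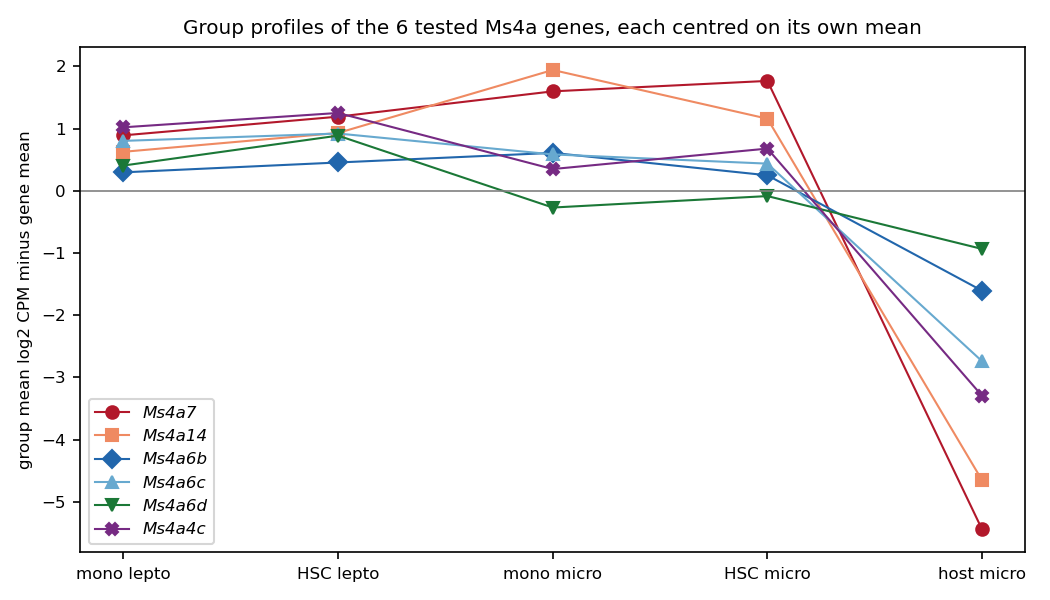
Group means of log2 CPM, centred on each gene's mean over the 5 groups (y axis), for the 6 tested members across the groups (x axis); lines only join the points of a gene. All 6 are lowest in host microglia, Ms4a7 and Ms4a14 peak in microglia of donor origin, and Ms4a6d, Ms4a6c and Ms4a4c peak in HSC-derived leptomeningeal macrophages.

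Profiles over the 5 group means were compared after centring, by the mean absolute difference on the log2 scale, as a description. A small count was added before logs were taken, which narrows differences near 0. The genes outside the family had no floor on level beyond the filter on low counts. The closest pair of members was Ms4a6c with Ms4a4c, at 0.32, followed by the adjoining Ms4a7 and Ms4a14, at 0.45. Ms4a6b and Ms4a6c, with the shared promoter run, were 0.46 apart. The farthest pair was Ms4a7 with Ms4a6d, at 1.80. Among 9587 genes outside the family, the nearest to Ms4a7 were Clec12a, an inhibitory lectin receptor of myeloid cells, at 0.36, Ctse, which encodes cathepsin E, at 0.42, and Vnn3, a vanin gene, at 0.44. The nearest to Ms4a14 were Ahr, the aryl hydrocarbon receptor, at 0.30, Cmah, an enzyme of sialic acid modification, at 0.33, and Ctse at 0.39. The nearest to Ms4a6d were Xaf1 at 0.05, Trim25, a ubiquitin ligase of antiviral signalling, at 0.09 and Cox7a2 at 0.10. For Ms4a6c they were Cd200r4, Adam19 and Fgl2 (0.10 to 0.17), for Ms4a6b Lrp6, Nampt and Sh3bp5 (0.08 to 0.12), and for Ms4a4c Xdh, Mdfic and Gramd3 (0.16 to 0.19). Adam19 averaged 12.4 CPM in monocyte-derived and 0.255 CPM in host microglia. Ms4a6c averaged 737 and 72.7 CPM there, so the closeness of these genes depends on the added count. Vnn3 and Cmah, at 0.088 and 0.114 CPM in host microglia, were also near 0.

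Of 16 other genes of the family that were looked for, counting the related Tmem176a and Tmem176b, 5 were in the table and 4 were tested. In monocyte-derived over host microglia 3 of the 4 were higher, beside 15.1% of all tested genes, and in HSC-derived over host microglia all 4, beside 16.3%. Tmem176b averaged 2199.6 ± 111 CPM in monocyte-derived microglia, 2681 ± 449 in HSC-derived microglia and 431 ± 31.6 in host microglia (SD, n = 4 each), with log2 fold changes over host of 2.35 for the monocyte-derived and 2.63 for the HSC-derived cells. Tmem176a had log2 fold changes over host of 2.98 in monocyte-derived and 3.23 in HSC-derived microglia, and was lower in HSC-derived leptomeningeal macrophages than in HSC-derived microglia, by a log2 fold change of -1.29 ± 0.24 (SE; edgeR adjusted p = 0.000267). Ms4a4b averaged 74.4 ± 33.1 CPM in monocyte-derived leptomeningeal macrophages, 23.6 ± 3.01 in monocyte-derived microglia and 2.02 ± 0.58 in host microglia (SD, n = 4 each). It was higher in both leptomeningeal groups than in the microglia of the same label, by log2 fold changes of 1.70 for monocyte-derived and 2.05 for HSC-derived cells, and T and NK cell markers were higher beside it. They summed to 855 to 1423 CPM in monocyte-derived and 347 to 742 CPM in HSC-derived leptomeningeal macrophages. Whether those cells account for Ms4a4b was not tested. Up to 15.7% of the 50-base stretches in the last 500 bases of a Ms4a4c transcript also occur in Ms4a4b, and 13.7% of those of Ms4a6c occur in other genes, Ms4a6b among them, so reads of these genes could be exchanged. For Ms4a7, Ms4a14, Ms4a4a and Ms4a6d the share was 0%.

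Ms4a8a had 8, 13, 26 and 18 UMIs in monocyte-derived leptomeningeal macrophages and 3 UMIs over the 4 libraries of monocyte-derived microglia, a count ratio of 22.6 with an exact 95% interval of 7.40 to 112. HSC-derived microglia held 6 UMIs and host microglia 0, a count ratio whose exact 95% interval starts at 4.96; 5 of the 6 UMIs were in shallow replicates 3 and 4. Ms4a1, the CD20 gene, was read 4, 5, 5 and 8 times in monocyte-derived leptomeningeal macrophages and once over all other libraries. It was at 0 in both libraries of HSC-derived leptomeningeal macrophages.

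Of 6 genes described as partners of MS4A proteins, 5 were tested. Clec7a, the dectin-1 gene, averaged 178 ± 18.8 CPM in monocyte-derived leptomeningeal macrophages, 100.4 ± 10.1 in monocyte-derived microglia, 119 ± 25 in HSC-derived microglia and 26.8 ± 2.28 in host microglia (SD, n = 4 each). It was called higher in both donor-derived microglia than in host microglia, by log2 fold changes of 1.91 for monocyte-derived and 2.20 for HSC-derived cells, and in monocyte-derived leptomeningeal macrophages than in monocyte-derived microglia, by 0.83. Trem2, a lipid-sensing receptor of microglia, was lower in both leptomeningeal groups than in the microglia of the same label, by log2 fold changes of -1.28 for monocyte-derived and -1.90 for HSC-derived cells, and was not called against host microglia. Syk, a kinase downstream of Clec7a and Trem2, had a log2 fold change of -0.43 ± 0.17 in HSC-derived over host microglia (SE; edgeR adjusted p = 0.0452). Tyrobp and Fcer1g, adaptor chains that carry such signals, were called in none of the 7 comparisons.

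Among genes whose symbols do not start with Ms4a, 13 of the table lie within 500 kb of a member and 11 were tested. In monocyte-derived over host microglia 3 were higher, 4 lower and 4 not called, with a median log2 fold change of 0.01, and 15.1% of all tested genes were called in each direction. In HSC-derived over host microglia 2 were higher, 2 lower and 7 not called, beside 16.3% of all tested genes higher and 13.1% lower. Gm8369, a protein-coding gene between Ms4a6c and Ms4a6b, had log2 fold changes over host of 3.53 in monocyte-derived and 3.15 in HSC-derived microglia. Whether Gm8369 itself belongs to the family was not examined. AW112010, annotated as a long intergenic noncoding RNA beside Ms4a8a, had log2 fold changes over host of 3.16 in monocyte-derived and 3.59 in HSC-derived microglia. Beyond the Ms4a block, Mrpl16, Osbp, Prpf19 and Tmem109 were lower in monocyte-derived than in host microglia, by -0.45, -0.58, -0.71 and -0.37 on the log2 scale. BE692007, which overlaps Ms4a6c on the opposite strand, had 0 UMIs in host microglia and 8 in monocyte-derived microglia. Whether counting used strand is not given in the sources used here, so its reads and those of Ms4a6c cannot be told apart.

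**Figure D4:**
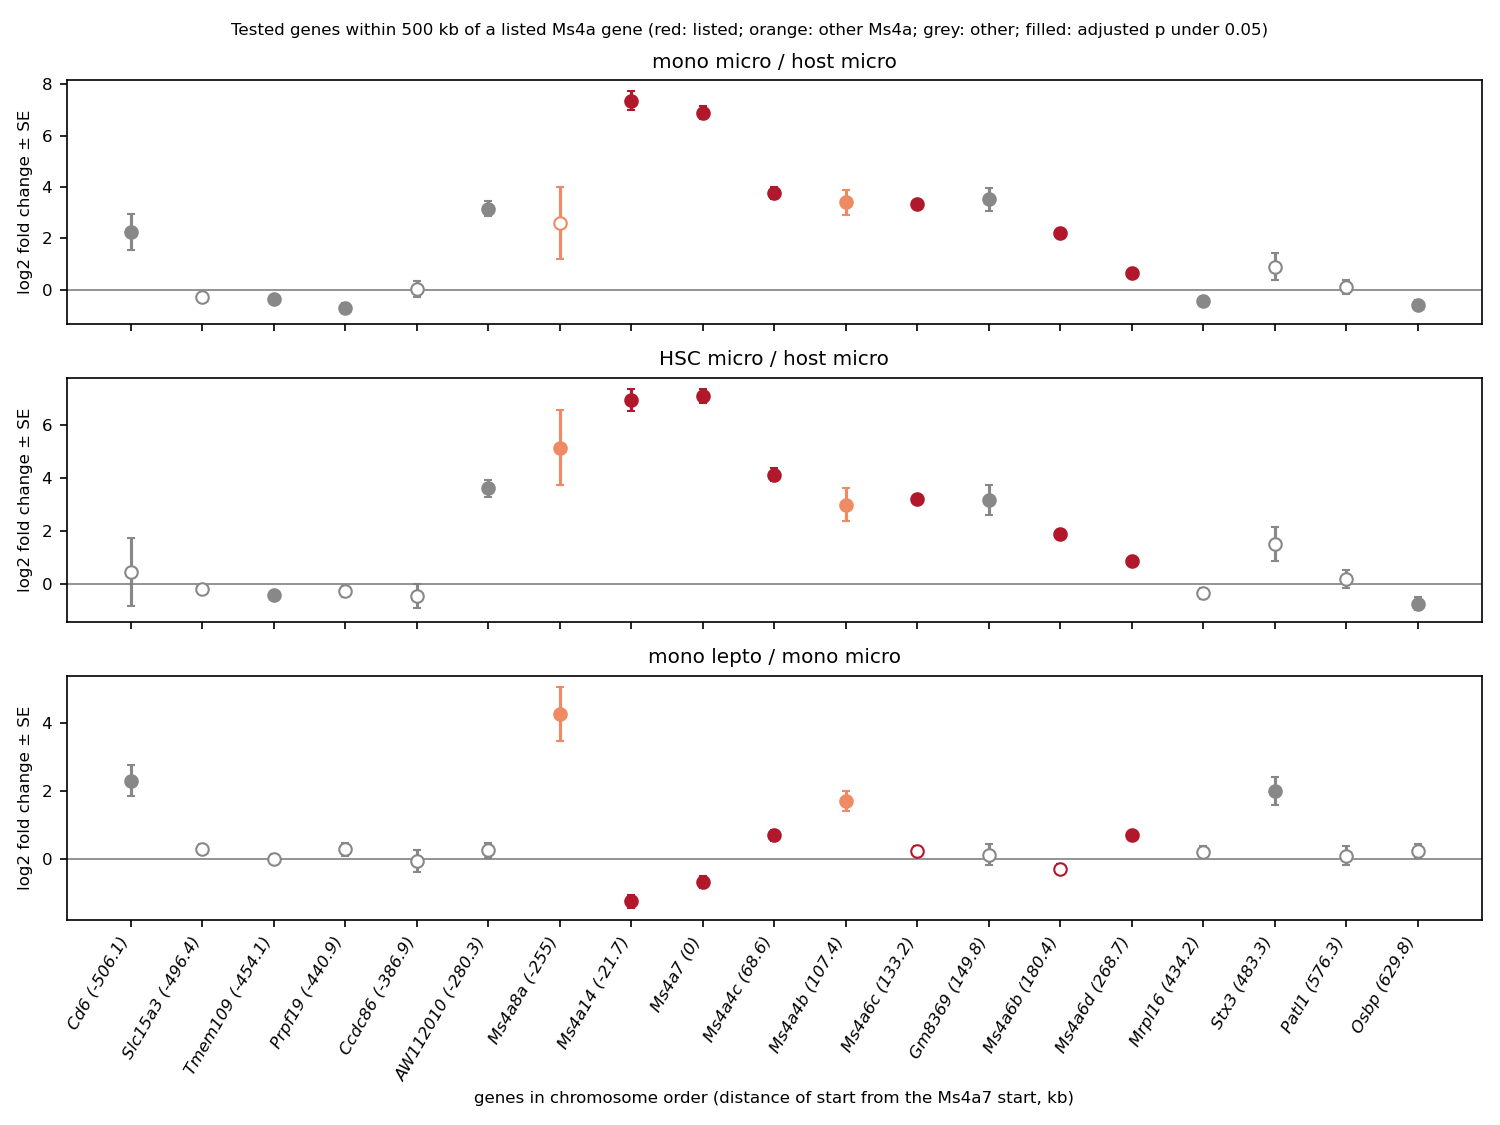
Log2 fold change ± SE (y axis) of tested genes within 500 kb of a member, in chromosome order with the distance of each start from the Ms4a7 start in kb (x axis, not to scale). From top to bottom the panels show monocyte-derived over host microglia, HSC-derived over host microglia, and monocyte-derived leptomeningeal macrophages over monocyte-derived microglia; the peak at Ms4a14 and Ms4a7, 7.36 and 6.90 in the first panel, is below 0 in the last, at -1.27 and -0.70.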

How the data were processed

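Bulk MARS-seq libraries of sorted macrophages were made by the authors from polyadenylated RNA captured on oligo(dT) beads, with actinomycin D during cell preparation, per the labels' protocols. The deposited table holds whole-number UMI counts per gene with no normalization, per the file headers. The build is mm10, per the submitters' processing notes; which aligner, counter or filter on genes was used was not given in the sources used here. Scaled versions of the counts were not used, and 2 count columns that match no described sample entered no step.

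All 18 libraries were fitted with edgeR 4.0.16 (R 4.3.3, limma 3.58.1): filterByExpr, TMM scaling, 1 coefficient per group, robust quasi-likelihood tests, two-sided, with Benjamini-Hochberg adjustment over 10597 genes at 0.05. The common biological coefficient of variation was 0.161. Intervals of count ratios are exact (Clopper-Pearson) at 95%; they and floors of 3 counts cover counting error only. The 25 replicate pairs differed beyond sampling noise (chi-square per degree of freedom 1.39 to 9.05). Within HSC-derived microglia the value was 1.61 for replicates 1 and 2 and 2.26 for replicates 3 and 4. Across these it was 7.10 to 9.05, and the part of this split in comparisons with that group was not tested. The model was tested on simulated data. Alternatives were RLE size factors, no scaling, no filter, DESeq2 1.42.0, a replicate block, leaving out the 3 shallowest libraries and leaving out each library. Named were all members, other family genes, partners, neighbours within 500 kb, and the 3 genes nearest in profile to each member of at least 20 CPM, without predicted genes. The members and lists were chosen with earlier results of these data known.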

Additional observations from a re-analysis of the deposited data

Results flagged for a closer look

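Within groups of 4 libraries, the gap between an extreme library and its nearest neighbour was set against the whole range of the group, with 0.829 as the 95% critical value. Of 27 such groups for the 7 members, 3 held a library that stood apart; chance gives about 1 in 20. Ms4a4a in host microglia, with 3 libraries at 0, was left out. In monocyte-derived leptomeningeal macrophages, replicate 2 was high for Ms4a7 (567 CPM, with the other libraries at 438 to 458; gap 0.844 of the range) and for Ms4a6b (660.0 CPM, with the others at 518 to 538; gap 0.857). It was also the highest of its group for Ms4a6c, at 1119 CPM. In host microglia, replicate 4 was high for Ms4a6d (187 CPM, with the others at 155 to 159; gap 0.894).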

How the results depend on the processing

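Of 42 pairs of a member and a comparison, 33 kept direction and call under all 24 alternatives. The 12 pairs against host microglia were among them. With total counts and no scaling factor, which shifts the median log2 fold change of all genes by -0.29 for HSC-derived over host microglia, 0.25 for monocyte-derived over HSC-derived microglia, -0.30 for monocyte-derived leptomeningeal macrophages over monocyte-derived microglia and -0.21 for the interaction, Ms4a7 and Ms4a6d turned to 0.16 and 0.13 between monocyte-derived and HSC-derived microglia, and 1 member was called there (Ms4a6b, 0.65, adjusted p = 0.0444). Under the same setting Ms4a6c turned to -0.084 between monocyte-derived leptomeningeal macrophages and monocyte-derived microglia and Ms4a4c to -0.091 in the interaction. Leaving out 1 library, the Ms4a4c interaction ran from -0.048 (without HSC-derived microglia replicate 4) to 0.298, and Ms4a7 was 0.050 between monocyte-derived and HSC-derived microglia without the 3 shallowest libraries. None of these reversed values was called in either setting. Ms4a6b was called lower in monocyte-derived leptomeningeal macrophages than in monocyte-derived microglia without scaling (-0.63, adjusted p = 0.00199), with DESeq2 (-0.33, 0.0268), without the 3 shallowest libraries (-0.33, 0.016) and without leptomeningeal replicate 2 (-0.40, 0.0482). DESeq2 called 3 members between HSC-derived leptomeningeal macrophages and HSC-derived microglia, adding Ms4a7 (-0.58, 0.0485) and Ms4a6c (0.49, 0.0439). The cause of these changes was not tested.

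Over all genes, the 200 called between monocyte-derived and HSC-derived microglia were 552 with DESeq2, 124 without scaling, 50 without the 3 shallowest libraries and 31 to 555 leaving out 1 library. The 32 called between leptomeningeal groups were 72 with DESeq2, 72 without the shallowest and 12 to 90 leaving out 1. The 1030 called between HSC-derived leptomeningeal macrophages and HSC-derived microglia were 366 without leptomeningeal replicate 1, and the interaction's 6 were 49 with DESeq2, 1 without scaling and 0 to 40 leaving out 1. Where leaving out a library left 1 HSC-derived leptomeningeal library, that library was assumed to vary like the other groups. The labels do not say that replicate numbers pair the samples. The deviations of same-numbered libraries correlated at -0.31 to 0.31 over 32 pairs, with 1 pair over 0.1, which cannot exclude pairing. Both extremes involve HSC-derived leptomeningeal macrophages, where centring on 2 libraries makes their deviations mirror images. With the numbers as a replicate block, 6 members were called against host microglia in each comparison and 0 between the microglia of donor origin, and the 200 genes there became 238. Counts of 3 in the shallowest library equal 19.4 CPM, so differences in Ms4a4a and Ms4a8a within the HSC-derived groups were not detectable at this depth.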
